A study of Mus musculus with 2 samples.

Results

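The genes described here run mitosis: 51 kinases, cyclins, checkpoint proteins, kinetochore and centromere proteins, kinesins, cytokinesis factors and condensin subunits. Their symbols were looked up in the GENCODE M21 gene set of the mouse, and the gene tables were read by gene identifier. All 51 matched an entry, out of 69691 listed features and 21460 nuclear protein-coding genes. RNA came from forebrain of healthy B6NCrl mouse embryos of 12.5 days, males and females together. Replicate 1 pooled 120 embryos and replicate 2 pooled 68, so a value is an average over many brains and says nothing of how single embryos vary. Total RNA was sequenced from 10 ng per library, with ERCC spike-in RNAs added. There was 1 group and no treatment, genotype or time to set it against, so the comparisons are between genes and between the pools, and with 2 pools no p-value is given. Levels are TPM, numbers of transcripts scaled for their length and for the size of the library, and so can be compared between genes.

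In mitosis, cyclin-dependent kinase 1 bound to its cyclins drives entry, condensin compacts the chromosomes, kinetochores built on the centromere catch microtubules, and kinesins shape the spindle. The spindle checkpoint holds back the anaphase-promoting complex, a ubiquitin ligase, until every chromosome is attached, after which separase opens the sister chromatids and the central spindle guides cytokinesis. In the embryonic forebrain the dividing cells are mainly progenitors lining the ventricles, and the neurons they produce have left the cycle.

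The libraries held 33711030 estimated counts in replicate 1 and 34578499 in replicate 2, and the spike-ins took 9.19% and 8.25% of TPM. All 5 telencephalic markers looked at were at 1 TPM or more in both pools, and all 6 markers of hindbrain and spinal cord were under it. The markers of radial glia, the progenitors, summed to 2460 and 2310 TPM in replicates 1 and 2, and those of neurons to 1385 and 1287 TPM. Blood and connective tissue were present too: the erythroid markers summed to 6339 and 8618 TPM, and the mesenchymal ones to 667 and 808 TPM. In such bulk RNA, fewer dividing cells and less RNA per dividing cell cannot be told apart.

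All 51 mitotic genes were expressed, and in both pools. All had 1 TPM or more, as did 60.0% of the nuclear protein-coding genes, and all had 10 TPM or more, as did 40.7%. Of the 51, 23 had 100 TPM or more, as did 7.45%. The median mitotic gene had 87.4 TPM in replicate 1 and 81.1 TPM in replicate 2. Its mean of 84.2 TPM compares with 21.005 TPM for the median of the 13079 protein-coding genes at 1 TPM or more, and 84.6% of those genes lay below it. Together the 51 genes made up 0.639% of all TPM in replicate 1 and 0.611% in replicate 2. From the highest to the lowest they spanned 21.8-fold, and their estimated counts ran from 596 to 21711 per library, so none rests on a handful of reads. The standard deviation between pools was at most 11.1% of the mean, with a median of 4.09%.

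**Figure D1:**
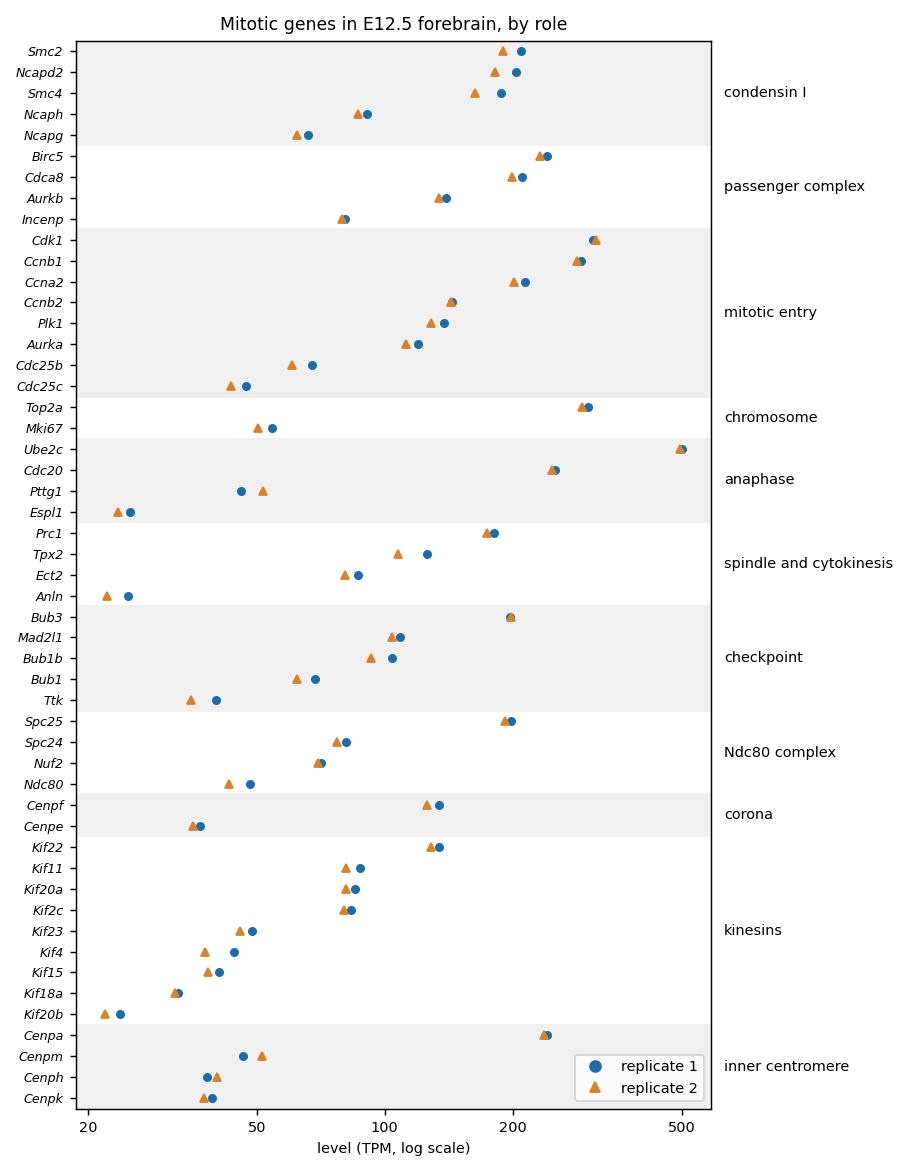
Level of each of the 51 genes in TPM (log axis) in replicate 1 (circles) and replicate 2 (triangles), grouped by role, with the group of highest median log2(TPM + 1) at the top. Ube2c stands alone on the right at 502 and 496 TPM, and within most roles the genes differ far more from each other than the pools do.

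Genes of the late cell cycle are known to share promoter elements: the cell cycle homology region, or CHR, read by the DREAM and MuvB complexes, and CCAAT boxes, read by NF-Y. The RefSeq promoter sequences, which run from 250 bases before to 50 after each start site on build GRCm38.p6, were searched on both strands for TTTGAA, a core of the CHR, for its variant TTCGAA and for CCAAT. Windows existed for 43 of the 51 genes. Those not matched were Spc24, Cdc25c, Ccna2, Incenp, Kif20a, Tpx2, Smc4 and Aurkb. TTTGAA was found in 30 of the 43 genes (69.8%), against 18.5% of 17492 protein-coding genes with a window. CCAAT was found in 32 (74.4%), against 42.3%, and TTCGAA in 5 (11.6%), against 2.13%. The CCAAT and TTTGAA motifs stood in the same window in 25 of the 43 genes, against 7.40% of all. These counts describe letters in a reference sequence and do not show that a factor was bound.

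The promoters of 8 genes are printed from 150 bases before the start site to 30 after it, in the direction of the gene, since they show where the motifs lie in strongly expressed members of several roles. Capitals mark TTTGAA or its reverse complement TTCAAA, and CCAAT or its reverse complement ATTGG. Birc5, a strongly expressed gene with neither motif in its window, closes the set.
Ube2c: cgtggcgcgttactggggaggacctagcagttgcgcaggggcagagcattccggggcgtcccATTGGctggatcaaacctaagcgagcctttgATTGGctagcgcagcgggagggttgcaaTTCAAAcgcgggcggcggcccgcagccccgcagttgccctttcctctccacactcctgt
Cdk1: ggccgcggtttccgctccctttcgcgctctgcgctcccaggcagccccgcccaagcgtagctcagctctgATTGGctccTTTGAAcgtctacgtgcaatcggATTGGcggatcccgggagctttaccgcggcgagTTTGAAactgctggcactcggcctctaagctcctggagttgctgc
Ccnb2: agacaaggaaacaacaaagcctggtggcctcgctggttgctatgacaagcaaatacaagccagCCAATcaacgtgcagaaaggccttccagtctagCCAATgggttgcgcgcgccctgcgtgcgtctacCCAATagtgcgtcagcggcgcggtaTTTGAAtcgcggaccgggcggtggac
Cdc20: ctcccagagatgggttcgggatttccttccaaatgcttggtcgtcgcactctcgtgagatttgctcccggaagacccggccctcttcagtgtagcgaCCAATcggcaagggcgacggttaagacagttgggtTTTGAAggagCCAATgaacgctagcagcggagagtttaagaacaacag
Top2a: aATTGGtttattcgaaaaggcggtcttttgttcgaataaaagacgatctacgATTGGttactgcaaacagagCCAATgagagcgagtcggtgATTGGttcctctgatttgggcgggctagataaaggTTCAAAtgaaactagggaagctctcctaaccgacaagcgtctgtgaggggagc
Prc1: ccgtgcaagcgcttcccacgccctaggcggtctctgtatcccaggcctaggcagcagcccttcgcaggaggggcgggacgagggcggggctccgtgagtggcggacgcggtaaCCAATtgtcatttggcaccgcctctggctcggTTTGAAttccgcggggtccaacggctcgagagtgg
Kif22: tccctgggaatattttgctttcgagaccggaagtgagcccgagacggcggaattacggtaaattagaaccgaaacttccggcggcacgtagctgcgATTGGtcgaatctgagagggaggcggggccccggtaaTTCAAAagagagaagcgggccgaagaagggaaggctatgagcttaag
Birc5: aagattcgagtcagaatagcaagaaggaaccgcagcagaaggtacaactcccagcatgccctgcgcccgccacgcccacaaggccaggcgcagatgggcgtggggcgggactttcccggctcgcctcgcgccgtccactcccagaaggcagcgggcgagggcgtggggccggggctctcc

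On GRCm38.p6 the Ube2c stretch is chr2:164769779-164769958 on the plus strand, that of Cdk1 is chr10:69352883-69353062 on the minus strand and that of Ccnb2 is chr9:70421525-70421704 on the minus strand. The Cdc20 stretch is chr4:118437314-118437493, minus, that of Top2a chr11:99024160-99024339, minus, and that of Prc1 chr7:80294301-80294480, plus. The Kif22 stretch is chr7:127042391-127042570, minus, and the Birc5 stretch chr11:117849087-117849266, plus. The first 7 genes were printed because their windows hold both motifs, so they are not a sample of all members. In each of the 7 a CHR-type motif lies within 50 bases of the start, with at least 1 CCAAT upstream of it. The first base of that motif lies 29 bases before the start in Ube2c, 18 before it in Cdc20 and 4 after it in Ccnb2. Top2a holds 4 CCAAT boxes in the printed stretch, all upstream of its TTCAAA.

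The position was shared beyond the printed genes. TTTGAA lay within 50 bases of the start in 27 of the 43 genes (62.8%), against 4.58% of all genes with a window. Over the 48 windows of these genes, the 25-base bin just after the start held TTTGAA most often, in 22.9% of windows, against 1.04% of all 21263. CCAAT peaked further upstream, from 75 to 50 bases before the start, in 33.3% of windows against 8.12%. By role, TTTGAA was found in 7 of the 8 kinesin genes with a window and in 1 of the 4 inner centromere genes, Cenpa. The 30 genes with TTTGAA had a median of 122.9 TPM, and the 13 without it 63.8 TPM, with ranges that overlap (22.9 to 499.0 TPM with it, 32.3 to 286 TPM without it). These medians count all transcripts of a gene. Cdk1, Cenpa, Cenpf, Smc2, Ncapd2 and Top2a, all with TTTGAA, had over 25% of their level outside transcripts with a full coding sequence. No gene without TTTGAA did, so the medians are not a like comparison of coding RNA.

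**Figure D2:**
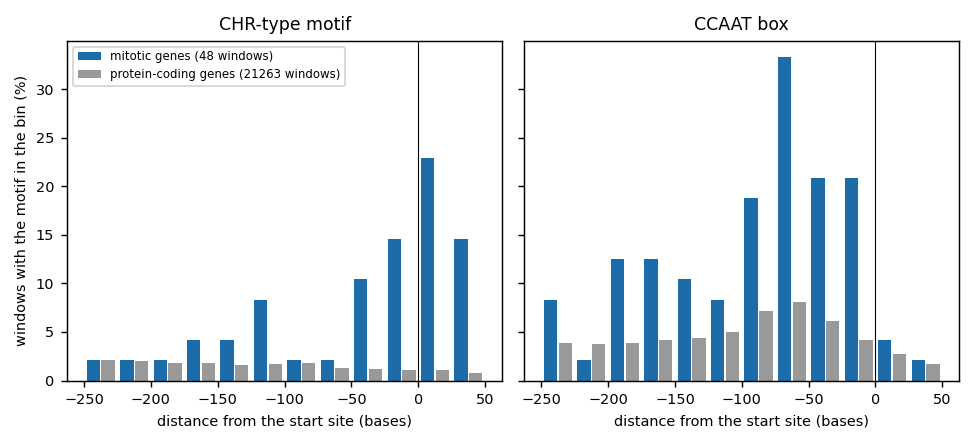
Share of promoter windows (percent) with TTTGAA, the CHR-type motif (left panel), or CCAAT (right panel) in each 25-base bin, by distance from the start site in bases, for the 48 windows of the mitotic genes (blue) and all 21263 protein-coding windows (grey). The blue bars peak just after the start for TTTGAA, at 22.9%, and 75 to 50 bases before it for CCAAT, at 33.3%.

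Among the genes of mitotic entry, the kinase and its main cyclin were the most abundant when all transcripts of a gene were counted. Cdk1, the kinase, had 310 TPM in replicate 1 and 314 TPM in replicate 2. Ccnb1, which encodes cyclin B1, had 289 and 283 TPM, and the closely related Ccnb2 had 144 and 143 TPM. Both pools therefore put Ccnb2 well under Ccnb1, at 0.501 of its level. Ccna2, cyclin A2, lay between them at 214 and 201 TPM. Counting only transcripts with a full coding sequence, Cdk1 had 187 and 189 TPM, below both Ccnb1 and Ccna2. By that count Ccnb1 had 268 and 259 TPM, and Ccna2 had 204.8 and 190.0 TPM, in replicate 2 nearly level with Cdk1. The kinases that act beside Cdk1 were lower: Plk1, polo-like kinase 1, had 138 and 129 TPM, and Aurka, the spindle pole kinase Aurora A, had 120 and 112 TPM. The phosphatases that activate Cdk1 were the lowest of the group. Cdc25b had 67.3 and 60.4 TPM, and Cdc25c had 47.0 and 43.5 TPM.

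The spindle checkpoint genes were far from equal, although their proteins work in shared complexes. Bub3, the adaptor that docks Bub1 and Bub1b at kinetochores, had 197 and 198 TPM. Bub1b, which encodes BubR1, had 104 and 92.6 TPM, and the kinase Bub1 had 68.6 and 62.2 TPM. Bub3 was thus 3.02-fold above Bub1, a difference many times the spread of either gene between the pools. Mad2l1, whose product Mad2 inhibits Cdc20, had 109 and 104 TPM. Ttk, the kinase Mps1 at the head of the checkpoint, was the lowest at 39.9 and 35.0 TPM.

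The anaphase genes spread more widely than any other role, by 20.5-fold. Ube2c, the ubiquitin-conjugating enzyme of the anaphase-promoting complex, was the highest of the 51 at 502 and 496 TPM and ranked 198th among protein-coding genes. Cdc20, the activator of that complex and the target of the checkpoint, had 252 and 247 TPM, which is 2.35-fold the level of its inhibitor Mad2l1. Espl1, the protease separase, was among the lowest at 25.1 and 23.6 TPM. Pttg1, securin, which holds separase inactive, had 45.9 and 51.5 TPM 2.00 times the level of Espl1.

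The chromosomal passenger complex comprises the kinase Aurora B and its partners. Birc5, survivin, had 241 and 233 TPM, and Cdca8, borealin, had 210 and 199 TPM. The kinase itself, Aurkb, had 139 and 134 TPM. Incenp, the scaffold that binds all the others, had the least, with 80.4 and 79.2 TPM, 0.584 of the Aurkb level. Each partner differed from Aurkb in both pools by more than either gene differed between pools.

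At the centromere, the histone variant stood above the proteins that assemble on it. Cenpa, the centromeric histone H3, had 242 and 237 TPM, of which transcripts with a full coding sequence made up 97.8 and 101.4 TPM. Cenpm had 46.4 and 51.5 TPM, Cenph 38.1 and 40.4 TPM and Cenpk 39.1 and 37.5 TPM, all subunits of the constitutive centromere network. Cenph and Cenpk did not separate: Cenpk was the higher in replicate 1 and the lower in replicate 2. In the outer corona, Cenpf, a large coiled-coil protein, had 134 and 125 TPM, and Cenpe, a kinesin that carries chromosomes to the spindle equator, had 36.8 and 35.4 TPM. That order turned when only transcripts with a full coding sequence were counted, with means of 22.6 TPM for Cenpf and 36.1 TPM for Cenpe. It did not turn by estimated counts per kilobase of the longest such transcript, scaled to library size. These were 24.8 and 24.4 for Cenpf and 22.0 and 21.5 for Cenpe.

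The Ndc80 complex binds microtubules and holds its subunits in equal number, but their RNAs differed by 4.27-fold. Spc25 had 198 and 191 TPM, and its direct partner Spc24 had 81.1 and 77.0 TPM. At the microtubule end, Nuf2 had 70.9 and 69.5 TPM and Ndc80 had 48.2 and 43.1 TPM. Spc24, Nuf2 and Ndc80 were therefore all below Spc25 in both pools.

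The 9 kinesins formed one of the lowest roles, with a median of 47.2 TPM. Kif22, the chromosome-arm motor, was the highest at 134 and 128 TPM. A middle set consisted of Kif11, the bipolar spindle motor Eg5, at 87.4 and 81.1 TPM, Kif20a, a motor of the central spindle, at 85.2 and 81.1 TPM, and Kif2c, the microtubule depolymerase MCAK, at 83.3 and 80.3 TPM. They could not be ranked among themselves, since each differs from its neighbour by less than the pools do for Kif11. Kif23, the motor of the centralspindlin complex, had 48.6 and 45.7 TPM, Kif4, a motor of chromosome arms and midzone, 44.1 and 37.6 TPM, and Kif15, a spindle motor that works beside Kif11, 40.6 and 38.3 TPM. Kif18a, which limits chromosome movement at the plate, had 32.5 and 32.0 TPM. Kif20b, a kinesin of late cytokinesis, was the lowest of the 51 at 23.8 and 22.0 TPM, 0.275 of its relative Kif20a.

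A partner protein was set beside 2 of the motors, and both motors were lower than it. Kif4 was at 0.230 of Prc1, the microtubule bundler it extends the midzone with, which had 181 and 174 TPM. Kif23 was at 0.239 of Racgap1, the other centralspindlin subunit, which had 205 and 189 TPM. Among the other spindle and cytokinesis genes, Tpx2, the activator of Aurora A on spindle microtubules, had 126 and 107 TPM. Ect2, the exchange factor that turns on RhoA at the division plane, had 86.3 and 80.8 TPM. Anln, anillin, a scaffold of the contractile ring, had 24.8 and 22.2 TPM.

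For chromosome structure, Top2a, the topoisomerase that untangles sister chromatids, had 301 and 292 TPM, 1.84-fold the level of Top2b, its relative that is also made in cells that do not divide, at 164 and 158 TPM. Counting only transcripts with a full coding sequence, that ratio was 1.203. Mki67, the coat protein of mitotic chromosomes, had 54.1 and 50.3 TPM. Of condensin I, the subunits Smc2, Ncapd2 and Smc4 had 210 and 190, 203 and 182, and 188 and 163 TPM in replicates 1 and 2. Ncaph, the kleisin that closes the ring, had 91.0 and 86.6 TPM, and Ncapg, a HEAT-repeat subunit, 65.9 and 62.0 TPM. Against condensin II, Ncapd2 was 7.12-fold above Ncapd3 and Ncapg was 2.83-fold above Ncapg2, but Ncaph was at 0.577 of Ncaph2. By transcripts with a full coding sequence these ratios were 4.42, 2.53 and 0.826, so Ncaph stayed lower but by less. So the order of the complexes depended on the subunit.

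The roles were ordered by the median of log2(TPM + 1) over their genes. Condensin I was at 7.46, the passenger complex at 7.40, mitotic entry at 7.12, chromosome at 6.97 and anaphase at 6.802. Spindle and cytokinesis followed at 6.64, checkpoint at 6.63, Ndc80 complex at 6.24 and corona at 6.12, and kinesins at 5.59 and inner centromere at 5.49 were the lowest. Neighbours in this order were not all apart: condensin I and the passenger complex changed places between replicate 2 (7.36 for each) and replicate 1 (7.56 and 7.43), and kinesins and inner centromere were level in replicate 2 (5.55 and 5.54). Chromosome and corona hold only 2 genes each. Of 28 pairs of functionally related genes, 25 differed in the same direction in both pools by more than either gene differed between pools. The 3 that did not were Cenpk with Cenph, Smc4 with Smc2 and Ncapd2 with Smc2. The share of other gene pairs that would meet this rule was not computed. Since the mitotic genes spanned 21.8-fold and the pools differed little, the count shows nothing particular to related genes.

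Gene TPM adds up all annotated transcripts, and for a few of these genes most of it was assigned to short or non-coding ones. A transcript is called complete here when M21 gives it a full coding sequence, and partial when its coding sequence is cut off at an end of the model. More than 25% of the level lay outside them in both pools for 7 genes (13.7%), against 25.7% of the 8917 protein-coding genes at 10 TPM or more. Those 7 were Smc4, Smc2, Cenpf, Cenpa, Cdk1, Ncapd2 and Top2a. The leading transcript held under 70% of the level in both pools for 13 genes (25.5%), against 37.5% of the same 8917 genes.

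Condensin showed the largest such departures. Smc2 (chr4:52439243-52488260, plus strand, mm10) had one complete transcript of note, Smc2-201, of 5404 bases, with 36.0 and 31.8 TPM in replicates 1 and 2, or 17.2% and 16.8% of the gene. The short non-coding Smc2-203, of 643 bases and confined to the first 17.4% of the gene, held 50.4% and 50.8%, and the similar Smc2-205 held 22.9% and 19.9%. By estimated counts, before any scaling for length, the order was the opposite: Smc2-201 held 62.8% and 60.7% of the reads assigned to the gene and Smc2-203 18.9% in each pool. Counted by complete transcripts alone, Smc2 had 36.1 and 32.0 TPM in replicates 1 and 2.

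Smc4 departed further, since a partial coding transcript of 1163 bases, Smc4-206, held 55.2% and 56.0% of its level. Smc4-207, annotated as a target of nonsense-mediated decay but spanning 99.1% of the gene, held 24.3% and 25.7% of the level and 50.9% and 51.8% of the estimated counts. Complete transcripts of Smc4 came to 12.5 and 11.5 TPM in replicates 1 and 2, a 14.6-fold lower figure than the gene total and the lowest of the 51. For Ncapd2 the complete transcript Ncapd2-201 held 61.6% and 62.7% of TPM and 92.4% of the estimated counts in each pool, the rest being mostly short retained introns. By complete transcripts the log2 median of condensin I was 5.86, which put it 8th of the 11 roles instead of first, and the passenger complex came first at 7.18. The corona, with 2 genes, went to the other end: its log2 median was 4.89, last of the 11 and below both kinesins (5.59) and inner centromere (5.47). By estimated counts per kilobase of the longest complete transcript, mitotic entry came first at 6.22, condensin I was at 5.62 and the corona was again last at 4.59.

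In other genes the level was assigned to complete and to other annotated transcripts in different proportions. Cenpf gave 45.4% and 45.8% of its level to Cenpf-203, a partial coding transcript of 3001 bases, and 16.95% and 17.95% to the complete Cenpf-204, of 11130 bases. Cenpa gave 42.6% and 39.3% to Cenpa-202, annotated as a target of nonsense-mediated decay, and 39.3% and 41.9% to the complete Cenpa-205. Cenpa-202 led in replicate 1 and Cenpa-205 in replicate 2. From its first to its last base on the chromosome, introns included, Cenpa-202 spans 92.9% of the gene. The exons of these transcripts were not compared. For Cdk1, the complete Cdk1-202 held 57.6% and 57.7%, and the retained introns Cdk1-203 and Cdk1-204 held 20.0% and 20.2%, and 17.1% and 17.9%. Cenpa came to 99.6 TPM by complete transcripts alone, still above Cenpm at 48.9 TPM. Top2a-201 held 65.0% and 59.9% of Top2a, with short non-coding transcripts of its ends holding most of the rest. By estimated counts, complete transcripts held more: 92.9% and 91.4% for Top2a, and 84.5% and 84.8% for Cdk1. The same shares of estimated counts were 54.7% and 56.0% for Cenpf, and 45.1% and 47.8% for Cenpa.

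**Figure D3:**
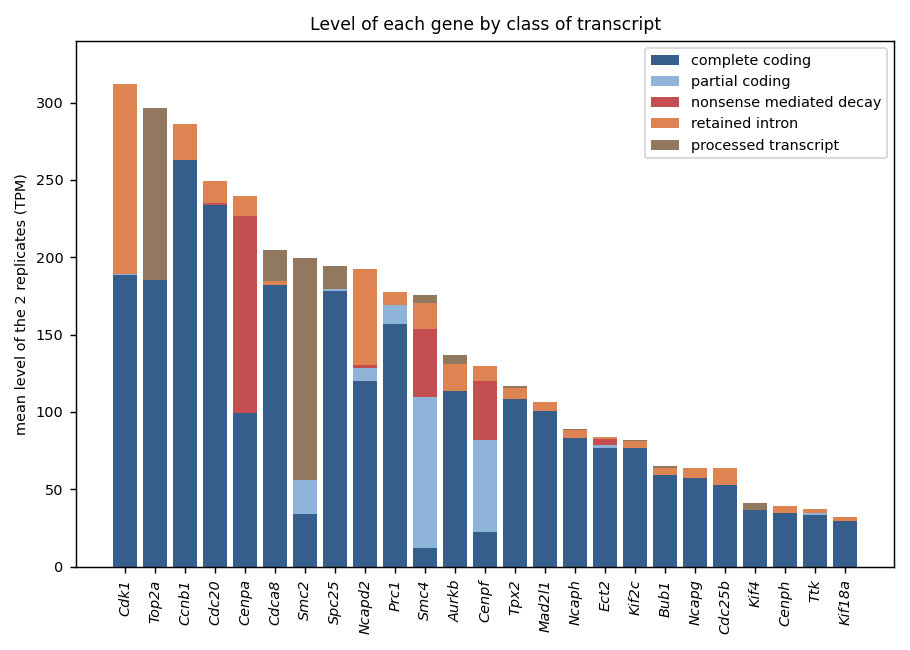
Mean level of the 2 replicates (TPM) of each mitotic gene with over 5% of its level outside complete coding transcripts, stacked by annotated class of transcript. Complete transcripts (dark blue) make up most of nearly every bar but only 12.0 TPM of Smc4, 34.1 TPM of Smc2, 22.6 TPM of Cenpf and 99.6 TPM of Cenpa.

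In 6 further genes the level was divided mainly among complete coding forms. Tpx2-202 led Tpx2 with 40.2% and 49.3%. Prc1-206 led Prc1 with 54.9% and 50.2%, Ect2-202 led Ect2 with 57.8% and 59.8%, Mad2l1-202 led Mad2l1 with 61.5% and 64.0%, and Spc25-201 led Spc25 with 64.3% and 67.4%. Pttg1 alone changed its shares between pools by over 15 points: Pttg1-202 had 54.7% in replicate 1 and 38.4% in replicate 2, and Pttg1-203 had 31.2% and 48.3%. These are transcripts of 741 and 700 bases, and Pttg1 had the fewest reads of the 51 genes.

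The pairs show which differences rest on the choice of transcripts or of the length used for scaling. With complete coding transcripts alone, 5 of the 28 changed direction. Ncapd2, Ncapg and Ncaph were above Smc2, by 3.51-fold, 1.68-fold and 2.43-fold, in place of ratios of 0.965, 0.320 and 0.445. Cdk1 was below Ccnb1, at 0.716 of it in place of 1.09, and Aurkb with Aurka became a near tie, at 0.989 in place of 1.18. With estimated counts divided by the length of the longest complete transcript, 7 changed direction, among them Birc5 with Aurkb and Pttg1 with Espl1. In these 2 pairs the divisor was the length of a minor transcript. Birc5-202, of 3334 bases, held a mean of 3.73% of Birc5, and Pttg1-204, of 1674 bases, 3.55% of Pttg1. By complete coding transcripts both pairs kept their direction, at 2.09-fold and 1.965-fold. By length, Pttg1 with Espl1 did not meet the rule for a difference. Spc25 over Ndc80, Bub3 over Bub1, Ncapd2 over Ncapd3 and Kif20a over Kif20b kept their direction under both measures.

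**Figure D4:**
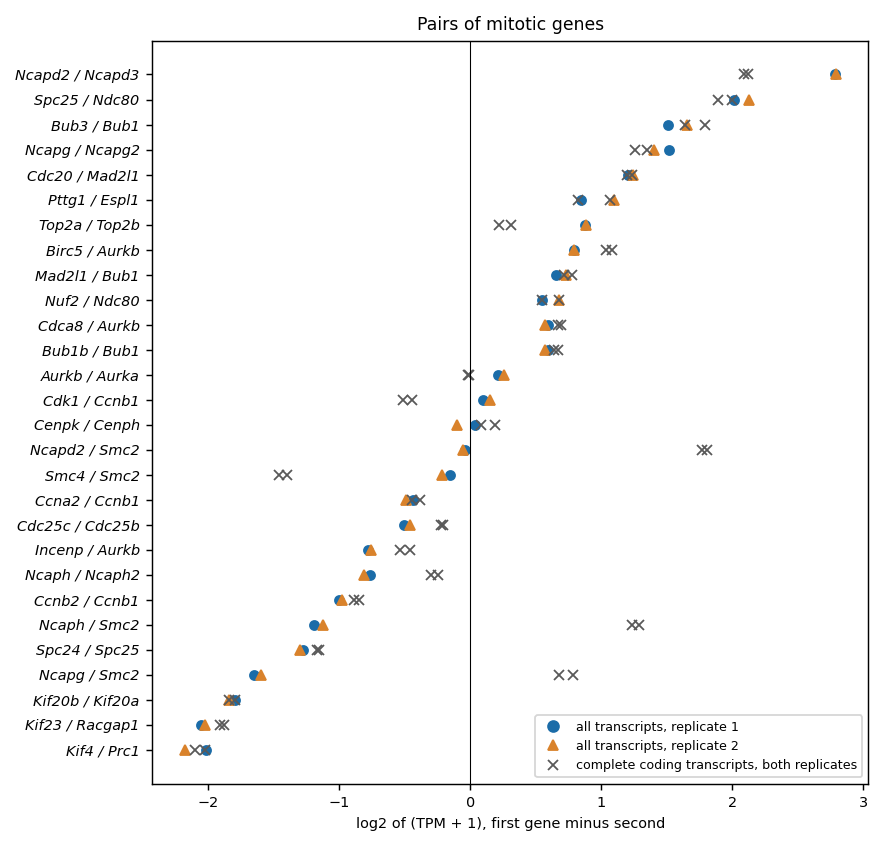
Difference of log2(TPM + 1) between the first and second gene of each of 28 pairs, in replicate 1 (circles) and replicate 2 (triangles), and from complete coding transcripts alone in both (crosses). Circles and triangles lie close together, while the crosses of Ncapd2, Ncaph and Ncapg with Smc2 fall on the other side of 0.

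The pools differed little, but most of the 51 genes were lower in replicate 2. Between replicate 2 and replicate 1, the log2 ratio of (TPM + 1) had a median of -0.07 over the 51 genes and ran from -0.22 (Tpx2) to 0.16 (Pttg1). No mitotic gene differed by more than 0.32 on the log2 scale. Of the 13079 protein-coding genes 8.86% did, but of the 6020 within the same range of TPM only 2.59%, so a count of 0 among 51 is close to the background. The median size of the difference, regardless of direction, was 0.08 on the log2 scale for the 51 genes and 0.07 for the 6020. In replicate 2, 46 of the 51 (90.2%) were lower, against 48.1% of the 13079 genes and 53.5% of the 6020. The 5 that were higher were Pttg1, Cenpm, Cenph, Cdk1 and Bub3. The intervals that the authors deposited with each level did not overlap between pools for 16 of the 51 genes, all lower in replicate 2, among them Tpx2, Smc4, Kif4, Ttk, Plk1 and Mki67. Such a gap was seen for 15.2% of the 13079 genes and 17.8% of the 6020. These intervals cover the estimation within one library only.

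Other measures moved with the pool. All 5 erythroid and all 4 mesenchymal markers were higher in replicate 2. The summed markers of radial glia and of neurons were slightly lower in replicate 2, but not every gene was: Fabp7 had 800 TPM in replicate 2 and 952 TPM in replicate 1, whereas Vim had 922 and 906 TPM. The telencephalic markers summed to 569 TPM in replicate 2 and 651 TPM in replicate 1. Among them Dlx1, a gene of the ventral telencephalon, had 170.5 and 246 TPM, and Lhx2, a gene of the dorsal telencephalon, 185 and 161 TPM. The part of these markers in the difference was not tested. Over the 51 genes the ratio was lower for longer genes, with a Spearman rank correlation of -0.53 with effective length, the length over which a read can start. Over the 13079 genes that correlation was -0.13. These points share the same pair of libraries, and the correlation is a description.

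**Figure D5:**
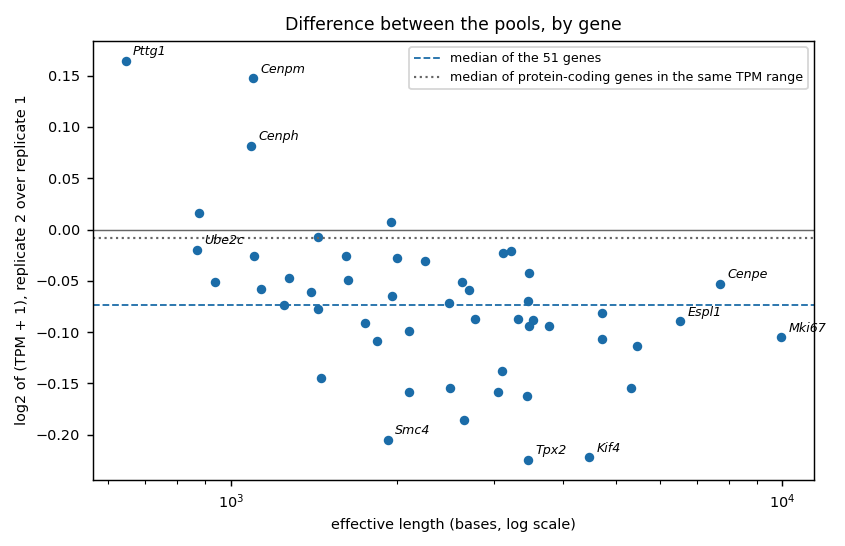
Log2 ratio of (TPM + 1), replicate 2 over replicate 1, of each of the 51 genes against effective length in bases (log axis). The dashed line marks their median of -0.07 and the dotted line that of protein-coding genes in the same TPM range, -0.01, and the short genes Pttg1, Cenpm and Cenph lie above 0.

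Of 73 other mitotic genes listed as companions, 71 had 1 TPM or more, 67 had 10 TPM or more and 13 had 100 TPM or more in both pools. Their median was 39.6 TPM. Between the pools, more companions were lower in replicate 2, among them Zwint, than were higher, among them Ube2s and Cks1b. They shared that direction less closely than the 51 genes did, and it was not set beside other genes. The highest were Ube2s, the chain-elongating partner of Ube2c, at 368 and 385 TPM, Zwint, an outer kinetochore protein, at 371 and 360 TPM, and Cks1b, a small subunit of cyclin-dependent kinases, at 299 and 326 TPM. The 2 genes under 1 TPM in both pools are known for their roles in germ cells: Ccnb3 had 1 read in replicate 1 and none in replicate 2, and Aurkc had none in either.

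Some levels may include reads of other loci. No source states that counting used strand, and 23 of the 51 genes overlap a gene on the opposite strand, so reads of the shared stretch could belong to either. Ccna2 overlaps Exosc9, Kif20a overlaps Cdc23, Kif4 overlaps Pdzd11, Ncapg overlaps Lcorl and Prc1 overlaps Rccd1. Pdzd11, at 112 and 108 TPM, and Cdc23, at 130.4 and 129.9 TPM, were above Kif4 and Kif20a. Exosc9, Lcorl and Rccd1 were below Ccna2, Ncapg and Prc1. Ccnb1 has near-identical pseudogene copies, of which Ccnb1-ps was listed at 1.72 and 2.08 TPM, and Mad2l1, Mki67 and Ndc80 each have at least 1 pseudogene that matches a stretch of their leading transcript at 95% identity or more over 200 bases. Among those of Ndc80, 2700099C18Rik was listed at 18.9 and 21.6 TPM, against 48.2 and 43.1 TPM for Ndc80 itself. The levels of all these mitotic genes are uncertain to that extent.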

How the data were processed

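Total RNA-seq of 2 forebrain pools was analysed. Per the deposited text, both tables of a replicate rest on its own transcriptome alignments (mm10, GENCODE M4), and the sources used here do not name the aligner or quantifier. The authors' tables give expected counts (estimated reads per feature), TPM over all features including spike-ins, posterior mean TPM, FPKM, and the percent that a transcript contributes to the gene. The deposited interval bounds, treated as a score, have no stated level. The members, role lists, pairs and companions were chosen with earlier results of these data known.

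Comparisons used the deposited TPM on the scale log2(TPM + 1), which understates differences of low genes. Symbols, positions and transcript classes came from GENCODE M21 by identifier without version. A pair was called different when its log2 difference had the same sign in both pools and exceeded, in each, the larger between-pool difference of either gene. Effective length was the length minus 99 bases. Transcripts were named where the leading one held under 70% in both pools or a share changed by over 15 points; of the companions, the 3 highest and those under 1 TPM were named. Alternatives rescaled the authors' estimated counts with edgeR 4.0.16 (TMM) or DESeq2 1.42.0 size factors in R 4.3.3; no count test was possible with 1 group. Other steps used Python 3.11.15, pandas 2.3.3 and blastn 2.17.0+ for copies. Statistics were tested on simulated data. Promoter sequences are from RefSeq (GRCm38.p6). The planned search of protein sequences was not run. Whether the pools came from separate litters or dissections is not stated, so the spread may be partly technical.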

Additional observations from a re-analysis of the deposited data

How the results depend on the processing

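All 51 genes stayed at 10 or more, in TPM or in the unit of the alternative, under every alternative run. The median log2 ratio of replicate 2 over replicate 1 ranged from -0.09 to -0.05. The pairs that met the rule numbered 25 to 27, although 5 changed direction with complete transcripts and 7 with the per-kilobase measure, as reported. The level of the median mitotic gene, 84.2 TPM as reported, was 92.3 TPM rescaled over mouse genes only, 50.7 in FPKM, 79.1 TPM by complete coding transcripts and 47.7 as estimated counts per kilobase of the longest coding transcript, scaled to library size. The number at 100 or more was 14 in FPKM and 9 per kilobase, in place of 23. The log2 difference of the median mitotic gene from protein-coding genes, 1.95 as reported, was 1.79 in FPKM, 2.13 by complete coding transcripts, 3.93 against genes without a filter on TPM and 1.15 against genes at 10 TPM or more. The highest minus the lowest role median, 1.98 on the log2 scale, was 2.29 by complete coding transcripts and 1.63 per kilobase. Genes with over 25% outside complete transcripts made up 24.3% of protein-coding genes at 1 TPM or more. TTTGAA before the start site was found in 17 genes in place of 30. The complete coding, per-kilobase and 50-base settings were chosen after seeing the data. No paired analysis was possible because there was 1 group. The 2 pools limit every spread to a single difference, and depth limited no member's detection.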
